A study of Mus musculus with 6 samples.

Results

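Colony-stimulating factors and related growth factors, together with their receptors, were examined in immune cells of CT26 tumors, which grow from a mouse colon carcinoma line. The set holds 10 of the 20649 genes in the count matrix, chosen by name. The ligands are Csf1, Csf2 and Flt3l, and the 7 receptor genes are Csf1r, Csf2ra, Csf2rb, Csf2rb2, Csf3r, Flt3 and Kit. BALB/c mice carried subcutaneous tumors from 500000 CT26 cells. Exosomes loaded with an antisense oligonucleotide (ASO) against STAT6 (exoASO-STAT6, 3 tumors) or with a scrambled ASO (exoASO-Scramble, 3 tumors) were given by 3 intratumoral injections on alternate days. Tumors were taken 24 h after the last injection, CD45 positive cells were enriched by selection, and single-cell RNA was counted with a droplet kit (10x Chromium 3′ v3.1) as unique molecular identifiers (UMIs), each of which stands for 1 captured transcript.

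All tumors share 1 matrix of 9235 barcodes, each a droplet that held at least 1 cell. Barcodes end in a suffix from 3 to 8, and no label links a suffix to a tumor. The suffixes were therefore read as 6 libraries of unknown treatment, and exoASO-STAT6 was not compared with exoASO-Scramble. Since it is not known that each suffix is a separate tumor, cell groups were compared within each library by direction and size, and no p-value is given. Total UMIs per library ran from 11492757 to 33902084, and 16 barcode sequences occurred in 2 libraries. Levels are UMIs summed over a group per 1000000 UMIs of that group (CPM), with exact Poisson 95% intervals in parentheses that cover counting error only and treat the UMIs of a barcode as independent, which they are not.

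CSF1 is the survival and growth factor of monocytes and macrophages and signals through the receptor tyrosine kinase CSF1R. GM-CSF, the product of Csf2, signals through a specific alpha chain (Csf2ra) and a beta chain that it shares with IL-3 and IL-5 (Csf2rb). Mice carry an additional, IL-3 specific beta chain, Csf2rb2. Csf3r encodes the G-CSF receptor of neutrophils. FLT3 ligand and its receptor Flt3 sustain dendritic cells and their precursors, and Kit, the stem cell factor receptor, is a hallmark of mast cells and of early progenitors.

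Barcodes were grouped by UMIs of gate genes that are not members of the set. The gates were macrophage (Adgre1 and C1qa together at least 3), monocyte (Ly6c2 at least 2), neutrophil (S100a9 at least 5), dendritic (Zbtb46 or Siglech at least 1), NK (Ncr1 at least 1), T (Cd3e, Cd3d and Cd3g together at least 2) and basophil (Mcpt8 at least 1). Many barcodes passed several gates: 4234 passed exactly 1, 3786 passed at least 2 and 1215 passed none. The groups below hold barcodes that passed 1 gate alone, plus a group that passed the monocyte and the macrophage gate and no other. They comprised 973 monocyte, 952 monocyte and macrophage, 2683 macrophage, 61 neutrophil, 69 dendritic, 178 NK, 251 T and 19 basophil barcodes. A further 2834 barcodes (30.7%) passed other combinations of gates.

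Markers outside the gates followed most of the gate names. Summed over 6 macrophage markers, the macrophage group reached 10108 CPM and the monocyte group 1983 CPM, whereas the 6 monocyte markers gave 785 and 4607 CPM. The 6 neutrophil markers summed to 4731 CPM in the neutrophil group and 4766 CPM in the basophil group. S100a8 (2719 CPM), G0s2 (1153 CPM) and Retnlg (89.5 CPM) were highest in neutrophils. Hdc (441 against 4666 CPM) and Cxcr2 (93.6 against 99.9 CPM) were higher in basophils, and Il1r2 (234 against 254 CPM) in the dendritic group. The neutrophil group also held 2298 CPM of the macrophage list, against 1983 CPM in monocytes, and 2406 CPM of the monocyte list. The part of these in its receptor levels was not tested. The basophil group held 4 barcodes with at least 157 UMIs of mast cell proteases, against at most 4 UMIs in each of the other 15, and is a mixture. Markers of tumor cells and stroma summed to at most 106 CPM, in NK cells, in the groups other than basophil. The basophil sum was 199.8 CPM, all of it Pecam1, which also gave 95.3 CPM in NK cells.

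Csf1 (chr3:107741048-107760469, minus strand, GRCm38), summed over libraries, was most abundant in basophils, followed by neutrophils and T cells. Its level was 799 CPM (604 to 1038) in the basophil group, 128 CPM (98.5 to 164) in the neutrophil group and 85.1 CPM (73.3 to 98.2) in the T group. NK cells had 32.5 CPM, monocytes 23.3 CPM and macrophages 15.1 CPM, and the dendritic group held a single Csf1 UMI. The basophil value rests on 56 UMIs in 11 of 19 barcodes. It ran from 0 in suffix 8, which has 1 basophil barcode, to 1944 CPM in suffix 5. In the T group every library had Csf1, with 42.5 CPM at the lowest and 113 CPM at the highest. The neutrophil and NK levels leaned on suffix 6, which gave 48 of 63 and 38 of 43 UMIs. Neutrophils lay above T cells in only 2 of 6 libraries, and the medians over libraries were 42.6 and 73.7 CPM. Over all barcodes that pass a gate, with or without others, basophils had 109 CPM (95.3 to 125) and neutrophils 103 CPM (99.1 to 107) of Csf1, and these intervals overlap. With gates applied at 4000 UMIs the basophil level was 298 CPM.

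Suffix 6 also stood apart for Csf1 in the mononuclear phagocytes. Monocytes of that library had 57.9 CPM, against 9.61 to 23.4 CPM in the others, and those with both gates had 61.9 CPM, against 1.43 to 14.2 CPM. Among T cells, the Cd8a positive barcodes had 91.5 CPM (76.5 to 109), the Cd4 positive ones 104 CPM (71.9 to 147) and the Foxp3 positive ones 68.7 CPM (40.03 to 110). These intervals overlap.

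Csf2 (chr11:54247271-54249667, minus strand) was rare, with 385 UMIs in 130 of all barcodes. The basophil group had the highest level, 471 CPM (324 to 661), but all 33 of its UMIs came from 1 barcode of suffix 6, and every other basophil barcode had none. T cells were next at 14.6 CPM (9.96 to 20.5), with 32 UMIs in 11 barcodes. Their libraries gave 0, 21.2, 0, 29.2, 6.85 and 16.3 CPM for suffixes 3 to 8. Among T cells, Cd4 positive barcodes reached 57.0 CPM (33.8 to 90.01), Cd8a positive ones 9.08 CPM (4.84 to 15.5), and the 44 Foxp3 positive barcodes held no UMI, which allows up to 12.1 CPM. The Cd4 value rests on 18 UMIs in 5 of 43 barcodes, and the Cd8a value on 13 UMIs in 5 of 108. Monocytes, macrophages, NK cells and the dendritic group had at most 0.756 CPM.

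Barcodes with other combinations of gates held 72.5% of Csf2 UMIs and 69.6% of Csf1 UMIs, against 47.4% of all UMIs. The ligands were therefore also traced through mixed barcodes. Barcodes of the T gate, alone or with other gates, held 247 of the 385 Csf2 UMIs (64.2%) while holding 26.9% of all UMIs. Another 54 were in the NK gate without the T gate, whose share of all UMIs was not computed. The barcode richest in Csf2, with 47 UMIs, passed the macrophage and the T gate. Within the macrophage gate, barcodes that also passed the T gate had 5.74 CPM of Csf2 against 0.897 CPM without it, a ratio of 6.40 (4.85 to 8.53), and the ratio was above 1 in 6 of 6 libraries. Within the same gate, those that also passed the neutrophil gate had 95.1 CPM of Csf1 against 23.2 CPM, a ratio of 4.10 (3.86 to 4.36), again above 1 in 6 of 6 libraries. In barcodes with other combinations of gates, Csf1 was 153 CPM in suffix 6 and 25.8 to 65.8 CPM in the other libraries. The part of this difference in the size of the summed ratio was not tested. The Csf1 ratio was 1.76 (1.66 to 1.88) with the T gate, above 1 in 6 of 6 libraries, and 1.92 (1.80 to 2.04) with the monocyte and 1.89 (1.51 to 2.34) with the basophil gate, each above 1 in 5 of 6.

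Flt3l (chr7:45129788-45136432, minus strand), the dendritic cell growth factor, was highest in lymphocytes. NK cells had 39.3 CPM (29.4 to 51.6) and T cells 31.8 CPM (24.8 to 40.2), with overlapping intervals. Over all barcodes of each gate, Flt3l was 20.1 CPM in NK and 17.5 CPM in T cells, with basophils at 19.1 CPM (13.5 to 26.2), against 12.7 CPM in monocytes and 10.6 CPM in macrophages. In the single-gate groups, NK cells ran from 27.3 to 56.2 CPM and T cells from 21.2 to 53.2 CPM over the 6 libraries, so that no library lacked it in either. Monocytes, macrophages, neutrophils and dendritic cells lay between 4.07 and 7.46 CPM. Thinned to 2000 UMIs per barcode, 6.71% of NK and 8.60% of T barcodes had a UMI, against 1.89% of macrophages and 0 of 55 neutrophil barcodes, which allows up to 5.45%. Without thinning the shares were 22.5%, 22.7%, 9.62% and 3.28%. Within the macrophage gate, barcodes that also passed the NK gate had 2.01 times (1.78 to 2.27) the Flt3l of those without it, and the ratio was above 1 in 6 of 6 libraries.

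**Figure D1:**
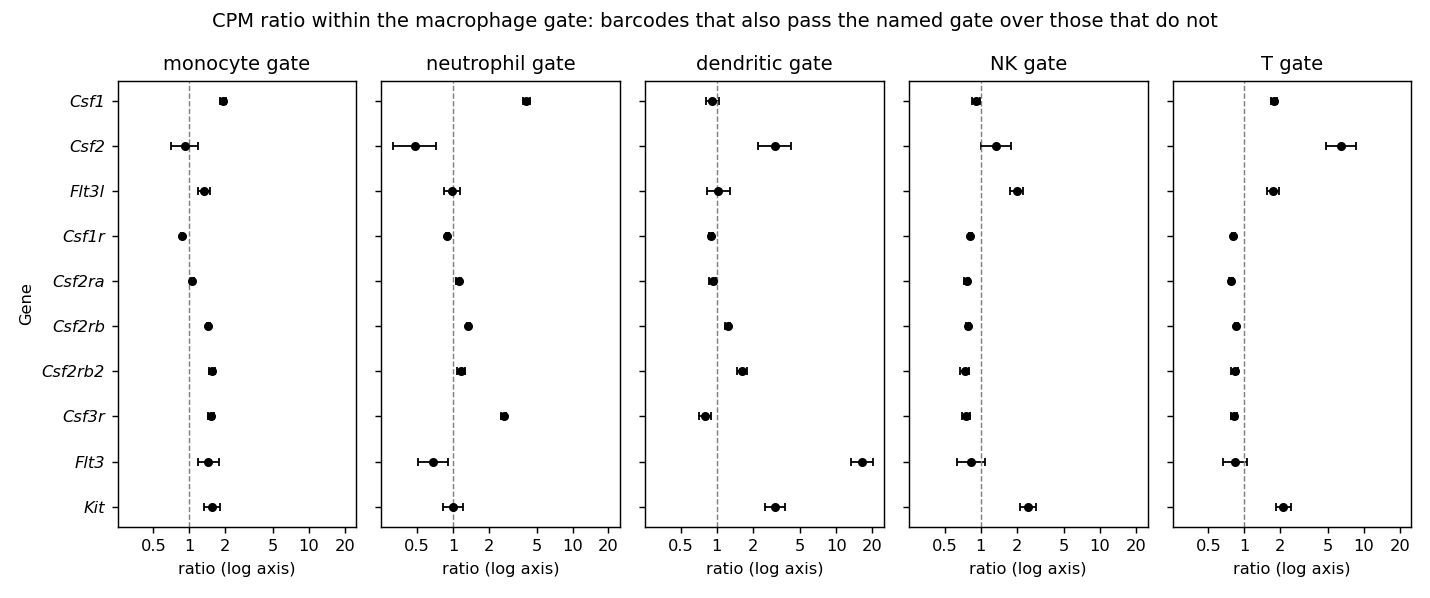
Ratio of CPM in barcodes of the macrophage gate that also passed a further gate over those that did not, on a log axis, for each of the 10 genes. Points are ratios over all 6 libraries summed, bars are exact 95% intervals for counting error, and the dashed line marks a ratio of 1. Csf1 and Csf3r stand furthest to the right with the neutrophil gate, and Flt3, Kit and Csf2 with the dendritic gate. Flt3l and Kit do so with the NK gate, and Csf2, Kit, Csf1 and Flt3l with the T gate. Csf1 does so with the monocyte gate. Csf2 with the dendritic gate was above 1 in only 3 of 6 libraries. Other ratios lie on both sides of 1, such as Csf2rb2 with the monocyte (1.55) and dendritic gates (1.63) and Csf1r with the NK gate (0.815).

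Csf1r (chr18:61100598-61132149, plus strand), the receptor of CSF1, was found in all mononuclear phagocyte groups. Summed over libraries, it was highest in macrophages at 353 CPM (347 to 359). The group with both gates followed at 337 CPM (328 to 347) and monocytes at 305 CPM (293 to 317). This order did not hold in every library. Monocytes were above macrophages in suffix 3 (371 against 364 CPM). The group with both gates was above macrophages in suffix 6 (297 against 252 CPM) and suffix 8 (332 against 305 CPM). Neutrophils had 228 CPM (188 to 274), and the part of their macrophage transcripts in this value was not tested. Dendritic, NK, basophil and T groups lay between 38.2 and 59.9 CPM, and their intervals overlap. Over all barcodes of each gate, dendritic cells had 233 CPM, NK cells 230 CPM, T cells 239 CPM and basophils 127 CPM, against 312 CPM in macrophages. At 2000 UMIs per barcode, 47.6% of macrophages and 44.9% of monocytes had a Csf1r UMI, against 7.24% of T cells, a group that should lack the receptor. Unthinned shares were 87.8%, 82.5% and 14.3% at median depths of 13215, 7825 and 6109 UMIs. The T value was itself uneven, with 165 CPM in suffix 5 and 18.0 to 40.3 CPM elsewhere.

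Csf3r (chr4:126024550-126044440, plus strand), the G-CSF receptor, was highest in the neutrophil group. Neutrophils had 228 CPM (188 to 274), monocytes 72.2 CPM (66.5 to 78.3), the group with both gates 66.0 CPM (61.9 to 70.3) and macrophages 36.9 CPM (35.0 to 38.8). Over all barcodes of each gate, neutrophils had 112 CPM (108 to 117) and monocytes 65.5 CPM (63.5 to 67.5). By library, the neutrophil values were 308, 22.5, 333, 291, 100.3 and 222 CPM for suffixes 3 to 8, with 1 UMI in suffix 4, and they exceeded the monocyte value in 5 of 6 libraries. No UMI was found in the 69 dendritic or the 19 basophil barcodes, where a count of 0 allows up to 3.74 and 42.8 CPM (3 UMIs). At 2000 UMIs per barcode, 25.5% of neutrophils, 13.05% of monocytes and 0.452% of T cells had a UMI. In the macrophage gate, the neutrophil gate went with 2.65 times (2.52 to 2.80) the Csf3r, a ratio above 1 in 6 of 6 libraries.

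Csf2ra, Csf2rb and Csf2rb2 encode the chains of the GM-CSF and IL-3 receptors. Csf2rb (chr15:78325752-78353847, plus strand) and Csf2rb2 (chr15:78282507-78305721, minus strand) are neighbouring paralogs of opposite orientation. The coding sequences of Csf2rb-201 and Csf2rb2-201 in GENCODE M21, of 2691 and 2637 bases, matched at 95.2% of 2631 aligned positions. Since the kit reads the 3′ end of a transcript, the risk of sharing reads depends on that end. Of all windows of 90 bases, 8.43% of Csf2rb were also in Csf2rb2, but none of the 411 windows in the last 500 bases of either transcript was. The authors' handling of reads that fit both copies was not tested. The ends of both coding sequences, at chr15:78349096-78349185 (plus strand) and chr15:78284317-78284352 (minus strand) of GRCm38, are shown because they set the copies apart, with capitals for bases that differ or that lie beyond the stop of Csf2rb2.
Csf2rb: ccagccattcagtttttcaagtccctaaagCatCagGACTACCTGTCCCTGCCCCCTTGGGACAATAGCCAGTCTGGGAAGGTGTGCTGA
Csf2rb2: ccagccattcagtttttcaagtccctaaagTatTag

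Csf2ra (chr19:61223957-61228429, minus strand), the GM-CSF specific alpha chain, was found in monocytes, macrophages, neutrophils and dendritic cells. Monocytes had 179 CPM (169.6 to 188), neutrophils 148 CPM (116 to 187), the group with both gates 137 CPM (131 to 143), dendritic cells 136 CPM (112 to 164) and macrophages 115 CPM (111 to 118). Each neighbouring pair in this order had overlapping intervals, and over all barcodes of each gate neutrophils came first at 123 CPM, before monocytes at 118 CPM. NK, basophil and T groups lay between 13.2 and 19.7 CPM, and all 6 libraries placed macrophages above NK cells. Basophils had 1 Csf2ra UMI in 19 barcodes, which gives 14.3 CPM (0.361 to 79.5).

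Csf2rb, the beta chain that passes on the signal of GM-CSF, IL-3 and IL-5, was highest in basophils at 1070.2 CPM (842 to 1342) when groups held barcodes of 1 gate alone, above dendritic cells in 4 of 6 libraries. Dendritic cells followed at 436 CPM (392 to 485), monocytes at 402 CPM (388 to 416), neutrophils at 327 CPM (279 to 382), the group with both gates at 238 CPM (230 to 246) and macrophages at 138 CPM (134 to 142). The dendritic and monocyte intervals overlap, and the others from basophils to macrophages lie apart from their neighbours, although monocytes exceeded neutrophils in only 3 of 6 libraries and neutrophils the group with both gates in 4 of 6. Basophil libraries gave 1833, 317, 2094, 1575, 1244 and 0 CPM for suffixes 3 to 8, with 1 barcode each in suffixes 3 and 8, and without suffix 6 the level was 772 CPM. With all barcodes of each gate it was 200.1 CPM (181 to 221), below the 233 CPM of monocytes, and with gates at 4000 UMIs 432 CPM. Thinned to 2000 UMIs, 73.3% of 15 basophils, 53.7% of dendritic cells, 46.6% of monocytes and 22.2% of macrophages had a UMI, against 4.98% of T cells. Unthinned shares were 68.4%, 82.6%, 79.3%, 66.4% and 12.0%.

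Csf2rb2, the IL-3 specific copy, was highest in basophils too, at 571 CPM (408 to 777), or 386 CPM without suffix 6, 257 CPM with gates at 4000 UMIs and 87.8 CPM (75.2 to 102) with all barcodes of the gate. Monocytes had 87.7 CPM (81.4 to 94.3), neutrophils 65.1 CPM (44.5 to 91.9), the group with both gates 51.6 CPM (48.0 to 55.5), dendritic cells 44.9 CPM (31.4 to 62.1) and macrophages 28.9 CPM (27.3 to 30.7). Basophils exceeded monocytes in 5 of 6 libraries. When the basophil group was split at 20 UMIs of mast cell proteases, a limit set after seeing the data, the 15 basophil barcodes below it had 1174 CPM of Csf2rb, 647 CPM of Csf2rb2, 936 CPM of Csf1 and no Kit UMI. The 4 barcodes above it had 4 Kit UMIs (354 CPM) and 1 Csf1 UMI.

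The 250 bases before the RefSeq start of a gene (GRCm38.p6) were available for 8 of the 10 members, not including Csf1r and Csf2rb. They were searched on both strands for GAGGAA, which reads TTCCTC on the opposite strand and is a core bound by PU.1, the ETS factor of myeloid cells. Of 27025 promoters, 23.1% held the motif at least once and 3.57% at least 2 times. Among the members, Csf2ra held 2 copies, at -14 and -8 from the start. Csf2rb2 held 1 at -167, Csf3r 1 at -86 and Kit 1 at -223, and the ligands and Flt3 held none in this window. Gene starts differ between RefSeq and GENCODE, whose coordinates are given for the genes above: the Csf3r match and the Csf2ra match at -8 lie inside the GENCODE gene, and the Csf2 window ends before it. The promoters of Csf2ra, at chr19:61228419-61228668 (minus strand), and of Csf2rb2, at chr15:78305722-78305971 (minus strand), are shown 5′ to 3′ as the alpha chain and a beta chain of the same receptor family, with the motif in capitals. A match of letters is not a binding site.
Csf2ra: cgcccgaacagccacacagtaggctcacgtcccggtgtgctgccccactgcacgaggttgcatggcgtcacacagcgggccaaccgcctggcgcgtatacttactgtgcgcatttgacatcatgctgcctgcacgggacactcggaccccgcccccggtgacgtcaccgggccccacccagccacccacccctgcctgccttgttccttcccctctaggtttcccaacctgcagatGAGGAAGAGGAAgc
Csf2rb2: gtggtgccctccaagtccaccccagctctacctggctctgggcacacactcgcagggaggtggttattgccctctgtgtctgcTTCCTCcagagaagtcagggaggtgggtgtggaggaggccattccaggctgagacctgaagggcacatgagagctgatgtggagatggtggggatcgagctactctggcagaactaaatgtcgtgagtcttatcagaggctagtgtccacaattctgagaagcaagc

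Flt3 (chr5:147330741-147400489, minus strand), the receptor of FLT3 ligand, was highest in the dendritic group. Dendritic cells had 145 CPM (120 to 173), and every other group had at most 4.07 CPM. Over all barcodes of each gate these values were 42.2 CPM (38.3 to 46.3) and at most 4.97 CPM. In the dendritic group the 6 libraries gave 109, 28.3, 203, 164, 70.5 and 135 CPM for suffixes 3 to 8, each above the highest value of any other group in the same library. At 2000 UMIs per barcode, 22.4% of dendritic barcodes and 0.610% of NK barcodes had a UMI, and without thinning 49.3% and 0.562% had one at median depths of 10316 and 5466 UMIs. Within the macrophage gate, the dendritic gate went with 16.4 times (13.4 to 20.2) the Flt3, a ratio above 1 in 6 of 6 libraries.

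Kit (chr5:75574916-75656722, plus strand) had its highest level in the same group, 64.8 CPM (48.4 to 85.0), with 18.2 CPM in the lowest library and 129 CPM in the highest. The dendritic level was 21.8 CPM (19.1 to 24.8) over all barcodes of the gate and 94.04 CPM with gates at 4000 UMIs, and without suffix 6 or 8 the basophil group was higher, at 90.8 and 64.9 CPM. The basophil group followed at 57.1 CPM (15.6 to 146) from 4 UMIs, all in the barcodes with mast cell proteases. NK cells had 20.4 CPM (13.5 to 29.7) and T cells 16.4 CPM (11.5 to 22.7), above the 2.03 to 3.76 CPM of monocytes, macrophages and neutrophils. Mast cell transcripts were also present in the T group, at 815 CPM over 4 markers, and without the T barcodes of at least 20 mast protease UMIs the Kit level was 14.3 CPM (9.68 to 20.2). At 2000 UMIs per barcode, 11.9% of dendritic, 6.10% of NK and 3.62% of T barcodes had a Kit UMI, against 0.462% of macrophages, and the unthinned shares were 34.8%, 9.55%, 9.16% and 2.35%.

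Subsets of the dendritic group, each of few barcodes, differed in their levels of Flt3 and Csf1r. Their levels are summed over libraries, and the direction by library was not tested. Barcodes with Zbtb46 and Xcr1, as in conventional type 1 cells (cDC1, 15 barcodes), had 228 CPM (171 to 298) of Flt3, 94.5 CPM (59.2 to 143) of Kit and 21.5 CPM (6.97 to 50.1) of Csf1r. Barcodes with Zbtb46 and Cd209a, as in conventional type 2 cells (cDC2, 20 barcodes), had 57.1 CPM (31.2 to 95.8) of Flt3, 61.2 CPM (34.2 to 101) of Kit and 147 CPM (103 to 203) of Csf1r. Mature dendritic cells with Ccr7 (20 barcodes) had 175 CPM of Flt3, 23.0 CPM of Kit and 1 Csf1r UMI. The intervals of cDC1 and cDC2 lie apart for Flt3 and for Csf1r and overlap for Kit, but the cDC2 value of Flt3 comes from 14 UMIs in 3 barcodes, 9 of them in 1. Csf2rb was present in all of them, at 468 CPM in cDC1, 506 CPM in cDC2 and 304 CPM in mature cells. The 6 plasmacytoid barcodes (Siglech without Zbtb46) held 6 Flt3 UMIs and no Kit UMI, and the 8 barcodes outside these subsets had 163 CPM (78.4 to 301) of Kit. Over all barcodes of the dendritic gate, with or without other gates, Kit was highest of the 4 subsets in cDC1, at 64.9 CPM, and lowest in plasmacytoid cells, at 4.11 CPM. Over the same barcodes Csf1r was 173 CPM (152 to 195) in cDC1 and 202 CPM (164 to 247) in cDC2, which overlap, and Flt3 was 83.7 CPM (69.6 to 99.7) and 37.2 CPM (22.03 to 58.7). Mature cells there had 40.01 CPM of Flt3 and 175 CPM of Csf1r.

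**Figure D2:**
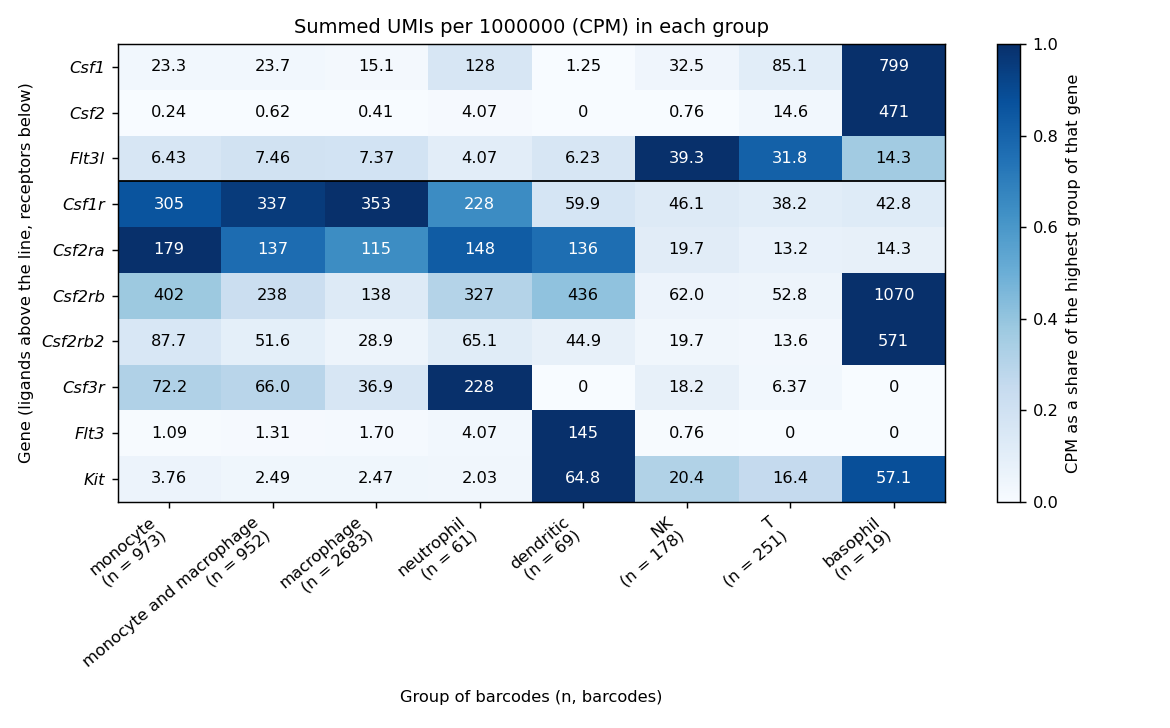
Levels of the 3 ligands (above the line) and 7 receptors in the 8 groups. Numbers are CPM, colours scale each gene to its own highest group, and n is the number of barcodes. Csf1, Csf2, Csf2rb and Csf2rb2 peak in the 19 basophil barcodes, Flt3l in NK cells, Csf1r in macrophages, Csf2ra in monocytes, Csf3r in neutrophils, and Flt3 and Kit in dendritic cells.

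To follow the receptors from monocytes to mature tumor macrophages, monocytes were compared with C1q-high macrophages. These are the 1922 barcodes of the macrophage group with at least 50 UMIs of C1qa, C1qb and C1qc per 10000 UMIs. A gene with at least 50 UMIs in both groups together was called when it differed at least 2-fold and in the same direction in all 6 libraries. Of 11067 genes, 575 were called lower in C1q-high macrophages (5.2%) and 1333 higher (12%), and the median log2 ratio of all genes was 0.21. Of the 6 receptors with enough UMIs, 4 were called lower (Csf2rb, Csf2rb2, Csf3r and Kit) and 0 higher, and the median of the 6 was -1.08 on the log2 scale. Neither of the 2 ligands with enough UMIs was called.

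Csf2rb fell in all 6 libraries. Monocytes had 382, 381, 371, 395, 419 and 421 CPM for suffixes 3 to 8, and C1q-high macrophages had 120.3, 127, 141, 127, 121 and 104 CPM. The groups do not overlap. Over all libraries the level fell from 402 to 122 CPM, a log2 ratio of -1.73 (-1.79 to -1.66), or 3.31-fold (3.15 to 3.47). With all barcodes that pass the gates the Csf2rb log2 ratio was -0.95, under the 2-fold limit, and it was not called. Csf2rb2 fell likewise, from 87.7 to 25.1 CPM, 3.50-fold (3.16 to 3.88). Its libraries ran from 62.6 to 128 CPM in monocytes and from 20.8 to 29.2 CPM in C1q-high macrophages, again without overlap. The monocyte value of 128 CPM was that of suffix 6, and without this library the Csf2rb2 log2 ratio was -1.60.

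The partner chain Csf2ra changed less. Its libraries ran from 138 to 203 CPM in monocytes and from 96.1 to 129.5 CPM in C1q-high macrophages, and all 6 C1q-high values lay below the lowest monocyte value. The summed level was 179 against 119 CPM, 1.501-fold (1.41 to 1.60), which is under the 2-fold limit, and Csf2ra was not called. Csf1r differed in the other direction. Monocytes had 371, 338, 358, 278, 276 and 298 CPM for suffixes 3 to 8, and C1q-high macrophages 386, 432, 444, 279, 327 and 318 CPM. The ranges overlap, but within each library C1q-high macrophages had the higher value. The summed ratio was 1.22 (1.17 to 1.27), log2 0.28, near the median of all genes, and Csf1r was not called. Within libraries the log2 ratio of Csf1r was smaller at the median, 0.167, and ran from 0.006 to 0.353.

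Csf3r fell from 72.2 to 34.6 CPM, 2.09-fold (1.88 to 2.31). Its libraries ran from 39.2 to 98.5 CPM in monocytes and from 30.1 to 55.5 CPM in C1q-high macrophages, with overlap. The fall was small in suffix 4, from 39.8 to 36.9 CPM. The 6 neutrophil markers moved with it, from 273 CPM (155 to 406 by library) in monocytes to 41.7 CPM (33.8 to 57.0) in C1q-high macrophages, S100a8 being the largest at 168 and 20.4 CPM. Il1r2 (57.4 to 7.66 CPM), Hdc (36.8 to 5.74 CPM), G0s2 (9.11 to 6.71 CPM) and Cxcr2 (2.06 to 0.945 CPM) also fell. The neutrophil marker Retnlg was near 0 in both, at 0.243 and 0.261 CPM. The part of neutrophil transcripts in the Csf3r value was not tested. Csf3r was no longer called without suffix 6 (log2 -0.95), at a C1q limit of 100 (-1.04), without the 10% of barcodes with most UMIs (-0.97), with the mean over barcodes (-0.88) or with all gated barcodes (-0.78).

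Kit was called on few counts, 31 UMIs in monocytes and 54 in C1q-high macrophages. Its level was 3.76 against 1.76 CPM, 2.14-fold (1.33 to 3.39), with a lower value in all 6 libraries. When gates were applied after thinning to 4000 UMIs, the Kit log2 ratio was -0.09, and it was not called without suffix 3, 5 or 7. Flt3 had too few UMIs for a call, 9 and 30. The ligand Csf1 was 23.3 CPM in monocytes and 10.1 CPM in C1q-high macrophages, with 4 of 6 libraries below and 2 above, and its log2 ratio of -1.21 became -0.50 without suffix 6. Flt3l was 6.43 against 6.52 CPM, with 3 or fewer UMIs in any 1 barcode.

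**Figure D3:**
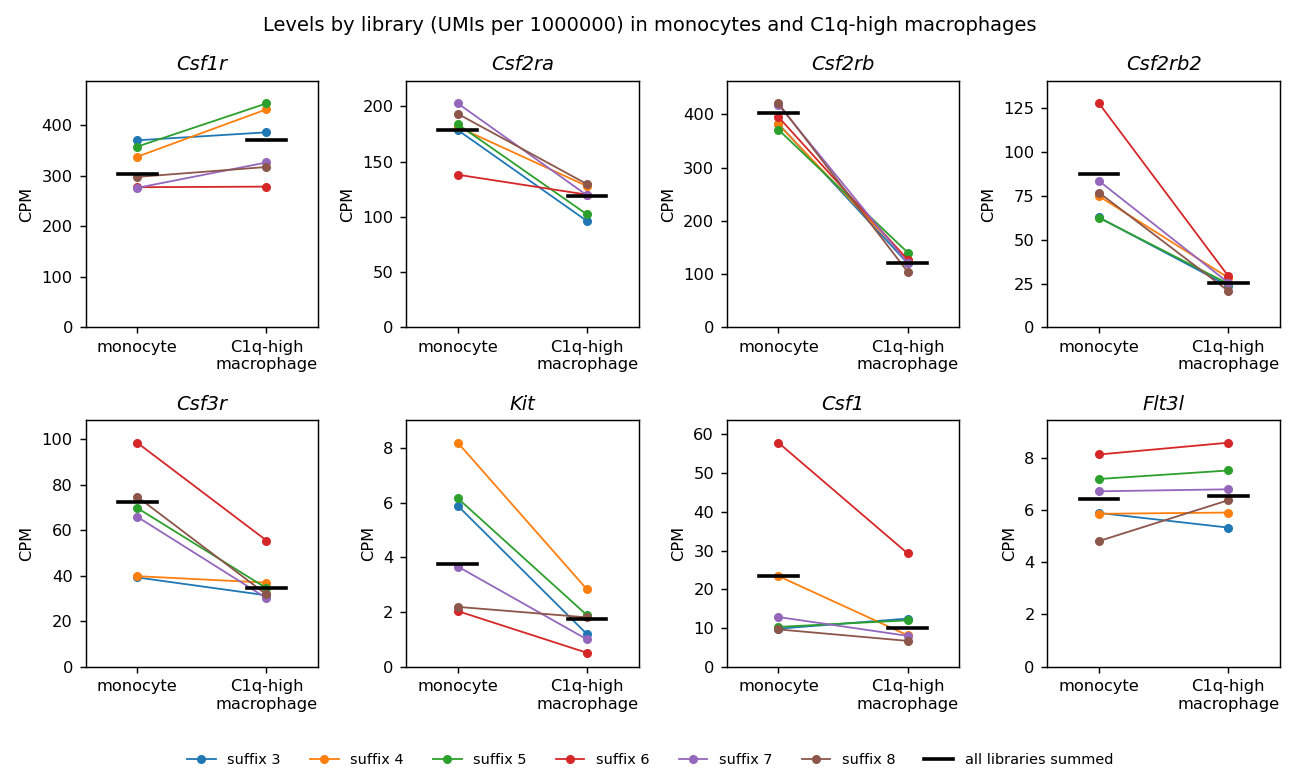
CPM of 6 receptors and 2 ligands in monocytes and C1q-high macrophages. Each coloured line joins the values of 1 library, and black bars are all libraries summed. All lines of Csf2rb, Csf2rb2, Csf2ra, Csf3r and Kit slope down and those of Csf1r slope up, Csf2rb going from 402 to 122 CPM and Csf1r from 305 to 371 CPM.

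The same receptors were followed in 5 steps of C1q content over the barcodes of the monocyte group, the macrophage group and the group with both gates. Csf2rb was 342, 249, 201, 150 and 116 CPM at under 5, 5 to 25, 25 to 50, 50 to 100 and at least 100 C1q UMIs per 10000. It fell at every step in 4 of 6 libraries, and the last step was below the first in 6 of 6. Csf2rb2 went from 78.0 to 23.6 CPM, with the last step below the first in 6 of 6 libraries and a fall at every step in 3 of 6. Csf1r took another course, with 310, 276, 307, 346 and 389 CPM, and its last step was below the first in 0 of 6 libraries. Csf2ra went from 162 CPM in the first step to 112 CPM in the fourth and 126 CPM in the last. Csf3r was 75.4, 59.1, 47.5, 37.4 and 35.7 CPM and lower at the end in 5 of 6 libraries, but fell at every step in only 1. Kit was 3.01, 5.45, 5.04, 2.65 and 1.04 CPM, lower at the end in 6 of 6 libraries and falling at every step in 0. The first step held 938 barcodes of the monocyte group and the last none, so the steps and the gates overlap in what they separate, and median depth was 8828.5 UMIs in the first and 17037 in the last.

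**Figure D4:**
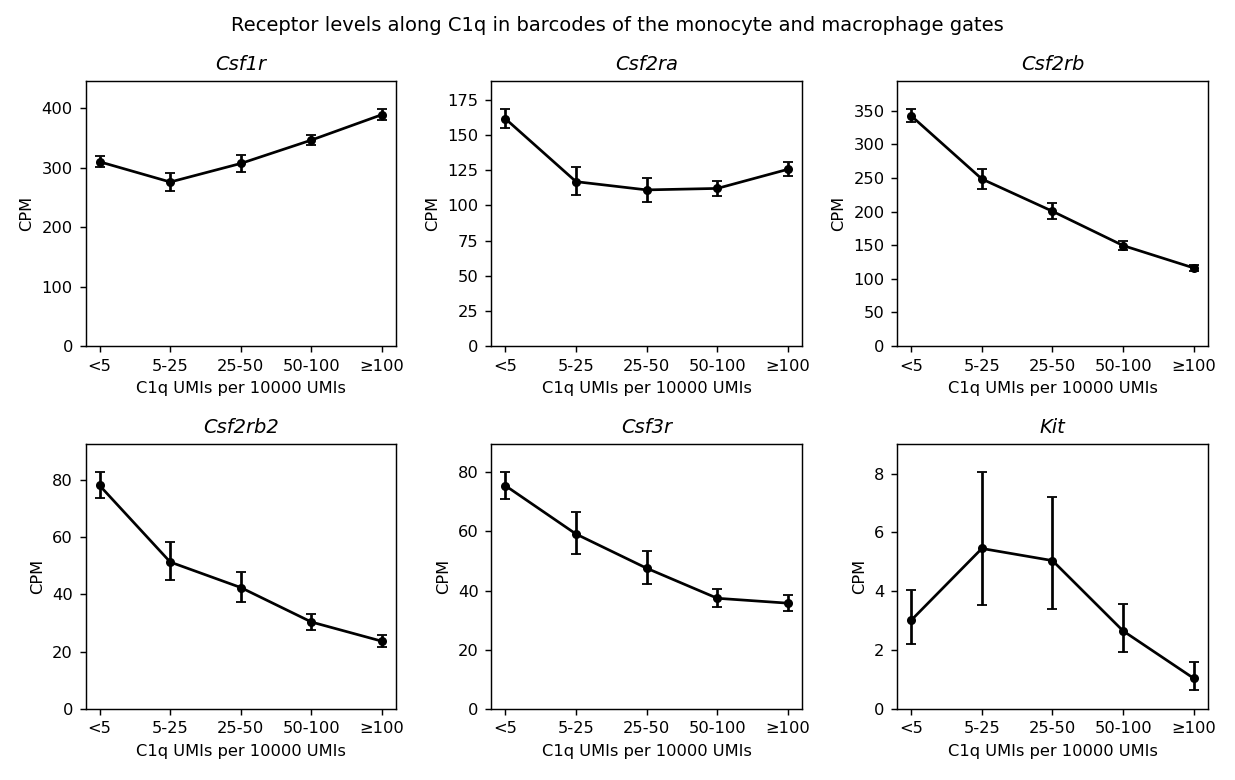
CPM of 6 receptors over 5 bins of C1q UMIs per 10000 UMIs, all libraries summed, with exact Poisson 95% intervals as bars. Csf2rb declines from 342 to 116 CPM across the bins while Csf1r goes from 310 to 389 CPM.

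Csf1r and Csf2rb were also examined together in single barcodes. At 2000 UMIs per barcode, both were found in 20.9% (18.3 to 23.6, Clopper-Pearson) of 958 monocytes and in 10.1% (8.79 to 11.6) of 1856 C1q-high macrophages. Csf1r without Csf2rb went from 24.0% (21.3 to 26.8) to 40.7% (38.4 to 43.0). Csf2rb without Csf1r went from 25.7% (22.9 to 28.6) to 8.78% (7.53 to 10.2). Barcodes with both gates lay between, at 16.5%, 28.7% and 19.4% for both, Csf1r alone and Csf2rb alone. Counted singly, Csf1r was found in 44.9% of monocytes and 50.8% of C1q-high macrophages, and Csf2rb in 46.6% and 18.9%. Whether the 2 genes occur together more or less often than these single shares imply was not tested. At this depth a missing UMI does not show that a cell lacks the transcript.

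**Figure D5:**
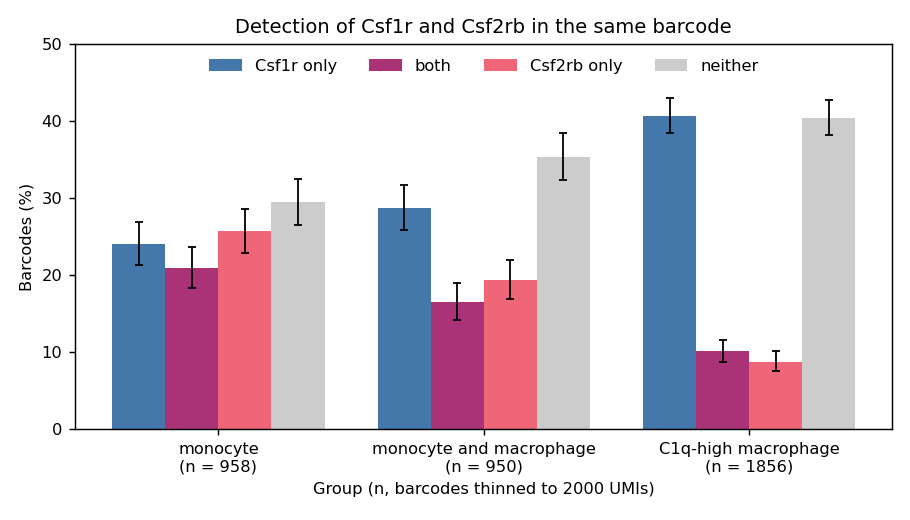
Share of barcodes, thinned to 2000 UMIs, with a UMI of Csf1r alone, of both genes, of Csf2rb alone or of neither. Bars are percentages of the barcodes in a group and error bars exact binomial 95% intervals. Csf1r alone goes from 24.0% of monocytes to 40.7% of C1q-high macrophages and Csf2rb alone from 25.7% to 8.78%.

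Among 45 further genes of these pathways, 38 had enough UMIs for the same comparison. Of these, 5 were called lower in C1q-high macrophages and 1 higher, against the 5.2% and 12% of all genes given above, and their median log2 ratio was -0.13. The kinase Jak2, which sits on the beta chain of the GM-CSF receptor, fell from 118 to 32.9 CPM (log2 -1.84). The feedback inhibitors of cytokine signalling Socs1 (log2 -1.74), Cish (-1.33) and Socs3 (-1.18) fell, as did the transcription factor Cebpb (-1.42), whereas their relative Socs2 was not called (log2 0.52, above in 5 of 6 libraries). Kitl, the ligand of Kit, was the gene called higher, at 1.09 CPM from 9 UMIs in monocytes and 9.16 CPM from 281 UMIs in C1q-high macrophages. Other signalling genes, among them Stat5a (log2 -0.46) and Stat5b (-0.50), were not called.

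Genes whose levels resembled those of a member were sought by Pearson correlation of log2(CPM + 1) over 31 units of group and library with at least 20 barcodes, which come from 7 groups, share libraries and are not independent. Lair1, Cyfip1 and Ctsc were most like Csf1r (r of 0.95 for each), and Il13ra1, Notch2 and Sestd1 most like Csf2rb (0.95, 0.93 and 0.93). Csf2rb2 was nearest to Pitpna, Trib1 and Emilin2 (0.93, 0.91 and 0.91), and Csf2ra to BC028528, Mcub and Ms4a6c (0.96, 0.96 and 0.96). Zeb2os, Dmxl2 and Cfb came first for Csf3r (0.92 for each), Ccl17, Gm43914 and Sept3 for Flt3 (0.90, 0.85 and 0.85) and Myh9, Padi2 and Srgap3 for Kit (0.84 for each). For the ligands, F2r, Rinl and Gimap1os resembled Flt3l (0.96, 0.93 and 0.92), and Pip5k1a, Chic2 and Tcea1 resembled Csf1 less closely (0.75, 0.71 and 0.70). Csf2 had Mrnip, Slc17a6 and Filip1 (0.81, 0.81 and 0.79), but 279 of its 385 UMIs lay in other combinations of gates, outside these units. Its likeness therefore rests on few UMIs, and no conclusion is drawn from it. The neutrophil and dendritic groups entered with 1 library each and the basophil group with none.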

How the data were processed

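CD45 positive cells of 6 CT26 tumors were sequenced as single cells. The authors deposited 1 matrix of UMI counts per gene and barcode, not normalized; the submitters' processing notes name Cell Ranger 1.2, Seurat 3.1.5, R 4.0.1 and mm10, and filters on cells and removal of doublets are not given in the sources used here. No further barcode was removed and no doublet caller was run, so barcodes with several gates can hold several cells.

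Counts were summed per group with Python 3.11.15, numpy 2.4.6, scipy 1.17.1, pandas 2.3.3 and matplotlib 3.10.9; biopython 1.88 aligned coding sequences and GENCODE M21 (GRCm38, the same build as mm10) gave coordinates. Exact Poisson, Clopper-Pearson and conditional binomial intervals (95%) were used. Suffixes are linked to no tumor, so the pooled matrix was treated as 1 sample with no replicate test, and cell groups were compared within each library by direction. A gene was called at 2-fold with the same direction in all 6 libraries and at least 50 UMIs. Shares were compared after thinning to 2000 UMIs per barcode.

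The genes named were the 10 members, gate and marker genes, the called pathway genes and, for likeness, the 3 genes of highest correlation per member. Socs2, Stat5a, Stat5b, Csf3, Il3 and Il5, which were not called, were named outside this rule. The members and gene lists were chosen with earlier results of these data known. Alternatives were other gates, C1q limits, thinning, weighting, count minimums and each library left out; the split at 20 mast cell protease UMIs, the comparison within the macrophage gate and dendritic subsets over all gated barcodes were added after seeing the data.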

Additional observations from a re-analysis of the deposited data

Results flagged for a closer look

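Of 29 sets of 6 library values examined in the larger groups, 8 held a library far from the others. Chance gives about 1 in 20 such sets when sets are independent. The 29 sets share the same 6 libraries, so no conclusion is drawn from the count. The 8 flagged sets came from 5 genes and most from suffix 6, whose treatment is not known. Suffix 6 had 57.9 CPM of Csf1 in monocytes (9.61 to 23.4 in the others), 61.9 CPM in barcodes with both gates (1.43 to 14.2) and 29.2 CPM in C1q-high macrophages (6.65 to 12.4). Its Csf2rb2 was 128 CPM in monocytes (62.6 to 83.6) and 72.0 CPM in barcodes with both gates (38.1 to 47.5). Its Csf2ra was 138 CPM in monocytes (178 to 203), below all others, and its Csf3r was 55.5 CPM in C1q-high macrophages (30.1 to 36.9). Suffix 5 had 165 CPM of Csf1r in T cells (18.0 to 40.3), from 31 UMIs.

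The 1215 barcodes that passed no gate, which enter no comparison above, carried 345 CPM of Csf2rb, 16.5 CPM of Flt3 and 18.2 CPM of Kit.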

How the results depend on the processing

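No paired analysis was possible because the replicate numbers of the labels are linked to no barcode suffix. This limit applies only to exoASO-STAT6 against exoASO-Scramble. Monocytes and C1q-high macrophages were both measured in every library and could have been paired by suffix. Each call rests on the direction within every library, and a paired test by suffix was not run. The number of receptors called lower was 4, or 2 when barcodes were averaged with equal weight, and 3 to 4 under every other alternative, each library left out included. The 3 with all gated barcodes were Csf2rb2, Flt3 and Kit, and Csf1 was called lower there, at a C1q limit of 100 and with no rule on libraries. Over 12 alternatives, run for 8 members, the log2 ratios of Csf2rb, Csf2rb2, Csf3r and Kit kept their sign. With all barcodes that pass a gate, 420 genes were called higher in place of 1333, 3 pathway genes lower in place of 5, and Csf2rb (-0.95) and Csf3r (-0.78) were no longer called. The Csf1r log2 ratio was 0.48 with all such barcodes, 0.36 at a C1q limit of 100, and from 0.22 to 0.34 when libraries were omitted in turn. The Csf2rb log2 ratio was -1.86 at that limit, -1.42 with gates at 4000 UMIs, -1.65 with equal weights, and from -1.78 to -1.64 when libraries were omitted in turn. Pathway genes called higher were 1 to 2 in such runs, with 2 only without suffix 6, and those called lower 4 to 6, with 4 without suffix 6. With gates at 4000 UMIs 4 were called lower. Kit was not called without suffix 3, 5 or 7, at a C1q limit of 25, with gates at 4000 UMIs, with equal weights or at a minimum of 200 UMIs. Without suffix 6, Csf2 was highest in T cells (10.8 CPM), and without suffix 6 or 8 Kit was highest in basophils (90.8 and 64.9 CPM). With all gated barcodes, Csf2ra was highest in neutrophils (123 CPM) and Csf2rb in monocytes (233 CPM). The cause was not tested for any of these. Small groups (19 basophil, 61 neutrophil and 69 dendritic barcodes) limit the precision.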

Other observations

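Kit was also measured in barcodes with mast cell transcripts, of which 4 lie in the basophil group. In 31 barcodes with at least 20 UMIs of mast cell proteases, a limit chosen after seeing the data, Kit reached 225 CPM (163 to 303) and was found in 23 of them. The 13 of these that passed no gate had 608 CPM (381 to 920), from 22 UMIs in 10 barcodes. The other 1202 barcodes without a gate had 15.3 CPM (12.6 to 18.42).

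Csf3, the G-CSF gene, which was looked at after its values were seen, had 35.6 CPM in monocytes and 7.33 CPM in C1q-high macrophages, with a lower value in 5 of 6 libraries, and was not called. Il3 and Il5 had 0 UMIs in both groups.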
